A study of Mus musculus with 8 samples.

Results

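5-hydroxymethylcytosine (5hmC) in the mouse hippocampus was followed at 4 glutamate receptor genes needed for synaptic plasticity. They were Grin1, Grin2a and Grin2b, which encode subunits of the NMDA receptor, and Gria1, which encodes a subunit of the AMPA receptor. A peak was kept when it overlapped the mm9 interval set for one of these genes, which left 163 peaks of the 393283 in all 8 lists. The intervals were 60 kb for Grin1 (chromosome 2 at 25130001 to 25190000), 470 kb for Grin2a (chromosome 16 at 9550001 to 10020000), 510 kb for Grin2b (chromosome 6 at 135640001 to 136150000) and 360 kb for Gria1 (chromosome 11 at 56800001 to 57160000). No peak crossed the edge of an interval.

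The samples were genomic DNA of the hippocampus of C57BL/6 mice, aged 6 weeks (young) or 18 months (aged). Control mice lived in standard cages. Enriched mice were placed for 5 h a day over 4 weeks in a roomier cage that offered objects, tunnels and a running wheel. Age and housing give 4 groups of 2 samples each, named by both (young control to aged enriched). Whether a pair of samples stands for separate mice is not stated in the labels. Fragments with 5hmC were captured through a biotin-tagged glucose, sequenced, and turned by the authors into 1 peak list per sample. The tissue label could not be checked against marker genes, since these files hold DNA peaks and no expression.

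5hmC is made by oxidation of 5-methylcytosine by TET enzymes, and in neurons it is known to be abundant within the bodies of genes. The NMDA receptor passes calcium only when glutamate is bound and the membrane is depolarised, so it detects coincident activity and starts long-term potentiation. Every NMDA receptor contains the Grin1 product GluN1. Grin2a and Grin2b supply the alternative partners GluN2A and GluN2B, of which GluN2B dominates early in forebrain development and GluN2A gains ground later. The Gria1 product GluA1 forms AMPA receptors, which carry most fast excitatory current and are added to synapses during potentiation.

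Lists held between 25548 and 78980 peaks, and the number of reads behind them is unknown, so a longer list may stand for deeper sequencing. Aged enriched replicates 1 and 2 had the shortest and the second shortest lists (25548 and 30832 peaks). Aged enriched replicate 2 also stood apart by its narrow peaks, whose median width was 430 bp, while the other lists had 650 to 952 bp. The lowest score listed was 50 in most lists, so "no peak" below means none above the authors' threshold.

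Grin2b carried most of the peaks. Its interval held 105 of the 163, against 28 in Grin2a, 15 in Grin1 and 15 in Gria1. Per length, the mean over samples was 3.13 ± 3.39 peaks per 100 kb in Grin1, 2.57 ± 1.56 in Grin2b, 0.745 ± 0.623 in Grin2a and 0.521 ± 0.456 in Gria1 (SD, n = 8 each), beside 1.87 over the genome. Grin1 and Grin2b lay within their spread of each other, and so did Grin2a and Gria1. The Grin1 interval is short and sits among other genes. In the gene order of RefSeq (GRCm38, used for names only) its neighbours are Lrrc26, Tmem210 and Anapc2 on one side and Man1b1 and Dpp7 on the other, so a peak there may belong to a neighbour.

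For Grin1, young control samples had 2 and 5 peaks, young enriched 1 and 5, aged control 1 and 1, and aged enriched none. The highest counts were in 1 sample of each young group, and the lowest young value equalled the aged control values. In Grin2a the counts were 3 and 8 in young control, 6 and 6 in young enriched, 2 and 0 in aged control, and 0 and 3 in aged enriched samples. Young and aged samples touched at 3 peaks, and the 2 empty lists were aged control replicate 2 and aged enriched replicate 1.

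Grin2b had 13 and 27 peaks in young control, 17 and 20 in young enriched, 10 and 3 in aged control, and 5 and 10 in aged enriched samples. Here all 4 young values lay above all 4 aged values, as in 9.19% of windows of that width. Gria1 had 3 and 5 peaks in young control, 2 and 2 in young enriched, 2 and 1 in aged control samples and none in aged enriched samples. Its young and aged samples touched at 2 peaks. Within each age both control samples lay above both enriched samples, as in 6.69% (young) and 39.5% (aged) of windows of that width.

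**Figure D1:**
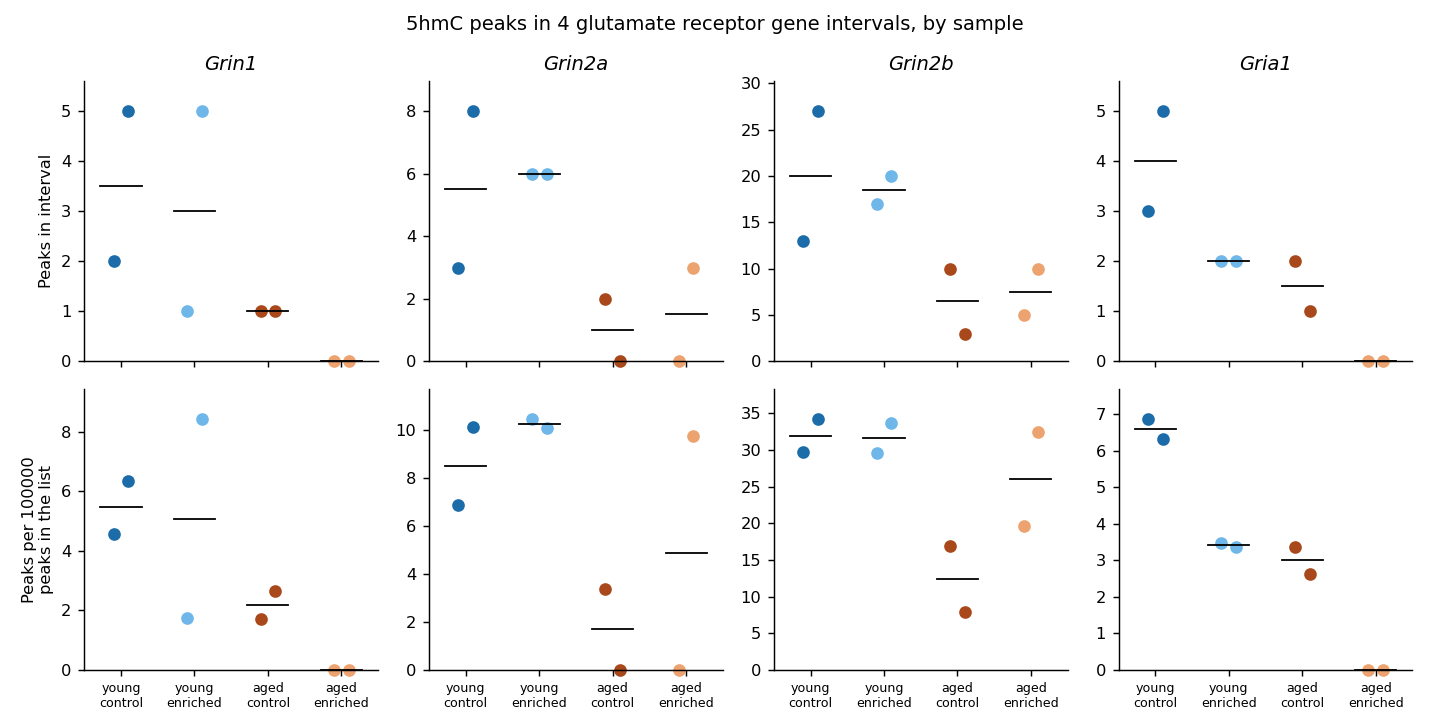
Peaks in the interval of each gene (upper row, number) and the same number per 100000 peaks in the sample's list (lower row), by group; each point is 1 sample and the line is the mean of the 2 samples. In Grin2b the young samples have 13 to 27 peaks and the aged samples 3 to 10; per 100000 listed peaks aged enriched replicate 2 reaches 32.4, among the young values of 29.6 to 34.2.

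Whether the receptor loci differ in 5hmC with age was first read from these raw values. The length under peaks did not overlap between ages in any of the 4 intervals. It was 14648 to 27772 bp in young and 2565 to 10445 bp in aged samples for Grin2b, and 2657 to 9068 bp against 0 to 1311 bp for Grin2a. In Grin1 it was 1145 to 6014 bp against 0 to 831 bp, and in Gria1 1595 to 5216 bp against 0 to 1368 bp. Shares of windows without overlap were taken among windows with a mean of at least 1 peak per sample. By length under peaks, young samples lay above all aged samples in 16.2% of such windows as wide as the Grin1 interval. The share was 20.9% at the Grin2a width, 21% at the Grin2b width and 20.2% at the Gria1 width. By number of peaks only Grin2b was without overlap, as were 9.19% of windows of its width. Young lists held 43709 to 78980 peaks and aged lists 25548 to 59260, and the part of list length in these unscaled differences was not tested. Divided by list length, the number of peaks overlapped between ages in all 4 intervals, Grin2b included.

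Within each list, Grin2b was rich in peaks in young samples and Grin2a and Gria1 were poor in every sample. Against all windows of the same width in the same list, Grin2b stood at the 66.7th to 70.9th percentile in young samples. In aged samples it stood at 54.8 and 42.2 in control replicates 1 and 2 and at 57.6 and 69.2 in enriched replicates 1 and 2. Grin2a ran from the 10.8th to the 42.9th percentile, and Gria1 from the 8.10th to the 40.5th. Grin1 varied most, from the 20.5th percentile in aged enriched replicate 2 to the 84.1st in young enriched replicate 2.

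**Figure D2:**
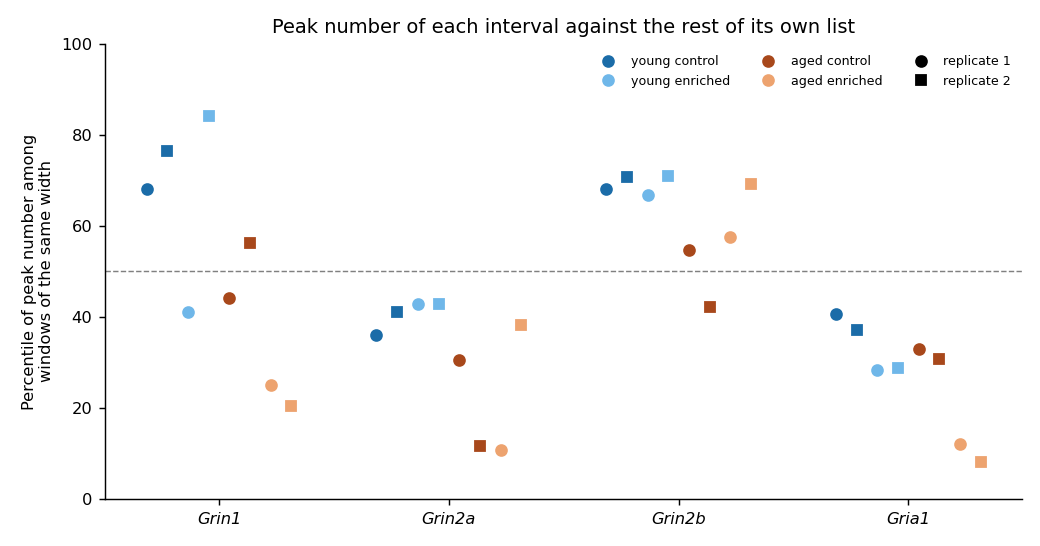
Percentile of the peak number of each interval among all windows of the same width in the same list (vertical axis); colours are groups, circles replicate 1 and squares replicate 2, and the dashed line is the median window. Every point of Grin2a and Gria1 lies below 50, and all 4 young points of Grin2b lie above it.

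Relative to list length, no age difference passed the test in any of the 4 genes. Grin2b had 29.7 and 34.2 peaks per 100000 listed in young control, 29.6 and 33.6 in young enriched, 16.9 and 7.89 in aged control, and 19.6 and 32.4 in aged enriched samples. Aged enriched replicate 2 lay among the young samples, and the other 3 aged samples lay below all of them. The log2 difference, aged minus young, was −0.73 ± 0.25 (SE) with a limma adjusted p of 0.468. All 4 genes had lower means in aged samples, at −0.76 ± 0.45 in Grin1 (limma adjusted p = 0.644), −1.12 ± 0.44 in Grin2a (0.531) and −0.61 ± 0.44 in Gria1 (0.702). By limma, 0 of 3254 windows of the Grin2b width passed for age (0%), with 272 (8.36%) at an unadjusted p under 0.05, among them Grin2b itself (unadjusted p = 0.00728). At the widths of Grin1 and Gria1 the count was also 0 (0%), with 1191 (8.68%) and 359 (8.37%) at an unadjusted p under 0.05. At the Grin2a width 1 window was called (0.0288%), and 302 (8.7%) had an unadjusted p under 0.05, Grin2a included (unadjusted p = 0.0157).

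Without aged enriched replicate 2, which leaves 1 sample in its group, the age difference was −0.89 in Grin2b, −1.55 in Grin2a and −0.69 in Grin1. In that fit 1 group has no spread of its own, so no call is read from it. Whether the change is particular to the receptor genes was not tested. Aged enriched replicate 2 also had by far the largest share of peaks with a score of at least 100 (72.4%, against 9.92% to 31.9%). Among such peaks the age difference was −0.19 in Grin2b and 0.15 in Grin2a (limma adjusted p = 0.922 and 0.946). Grin2b then had 3, 9, 4 and 4 peaks in young and 3, 0, 1 and 7 in aged samples (control first), and Grin2a had 1, 2, 1 and 1 in young samples and 3 in aged enriched replicate 2 alone of the aged ones. Grin1 had 1 such peak in each of 3 young samples and none in aged samples, and Gria1 had none at all, so fitted values there say nothing about age. The fitted values from all peaks depend on the 1 peak added to each count before taking logs wherever a list has no peak. With 0.25 peak added instead they were −1.72 in Grin1, −2.11 in Grin2a and −1.55 in Gria1.

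In young mice, Grin2b peaks were at nearly the same level in both kinds of housing. The control and enriched samples had means of 32.0 ± 3.14 and 31.6 ± 2.87 peaks per 100000 listed (SD, n = 2 each). The log2 difference, enriched minus control, was −0.019, with a 95% interval of −0.76 to 0.72 (limma adjusted p = 0.998). Grin2a (0.23 ± 0.62 SE) and Grin1 (−0.29 ± 0.63 SE) had differences well inside their errors (limma adjusted p = 0.996 and 0.994). Gria1 had 6.86 and 6.33 peaks per 100000 listed in control and 3.48 and 3.36 in enriched young samples. These values did not overlap, as in 17.1% of windows of its width (6.69% by raw count and 11.8% by length under peaks), and the difference of −0.70 ± 0.62 (SE) did not pass (limma adjusted p = 0.997). By limma 0 windows passed for housing in young mice at any of the 4 widths (0% each), with 277 (2.02%), 43 (1.24%), 34 (1.04%) and 61 (1.42%) at an unadjusted p under 0.05 for the widths of Grin1, Grin2a, Grin2b and Gria1.

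In aged mice the enriched samples had relatively more Grin2b peaks than the control samples, though not past the threshold of the test. Aged control samples had 16.9 and 7.89 and aged enriched samples 19.6 and 32.4 peaks per 100000 listed, without overlap, as in 24.8% of windows of that width. The raw counts of 10 and 3 against 5 and 10 did overlap. The log2 difference was 1.05 ± 0.36 (SE, limma adjusted p = 0.110), and 0.707% of windows were called. Its unadjusted p was 0.00675, and 20.8% of windows of that width had an unadjusted p under 0.05. The raw length under Grin2b peaks was 10445 and 2565 bp in aged control and 4809 and 4965 bp in aged enriched samples, lower on average in the latter. As a share of each list's total length under peaks (58.5, 31.4, 18.3 and 13.7 Mb in the same order) the log2 difference was 1.33 and passed (limma adjusted p = 0.0454). By this measure 113 of 3254 windows of that width were called higher and 39 lower, in place of 19 and 4 by scaled peak number. The difference in scaled peak number was 1.46 without aged control replicate 1 and 0.64 without aged control replicate 2. It was 1.35 without aged enriched replicate 1 and 0.75 without aged enriched replicate 2. Each of these fits leaves a group with a single sample, so no call is read from them.

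Among the other receptor genes Grin2a had 0.97 ± 0.62 (SE) for enriched minus control in aged mice (limma adjusted p = 0.389, 0.72% of windows called), with all 3 enriched peaks in aged enriched replicate 2. Without that sample the value was 0.10, without aged control replicate 2 it was 0.49 and without aged enriched replicate 1 it was 1.83. With a pseudocount in proportion to list length it was 0.56. Grin1 and Gria1 had peaks in both aged control samples and in neither aged enriched sample. Raw counts were without overlap in this direction in 31.2% and 39.5% of windows of their widths, lengths under peaks in 54.4% and 61.2%, and scaled counts in 20% and 17.5%. Their differences were −0.24 ± 0.63 (SE, limma adjusted p = 0.884, 0% of windows called) and −0.53 ± 0.62 (SE, adjusted p = 0.668, 0.303% called). With 0.25 peak added they were −1.56 and −1.99. Unadjusted p-values under 0.05 were held by 11.9% of windows at the Grin1 width, 20% at the Grin2a width and 18.2% at the Gria1 width, and by none of these 3 genes.

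The effect of housing was not shown to differ between ages in any of the 4 genes. The interaction, housing in aged minus housing in young mice, was 1.07 ± 0.51 (SE) in Grin2b (limma adjusted p = 0.478) and 0.74 ± 0.88 in Grin2a (0.803). It was 0.043 ± 0.89 in Grin1 (0.984) and 0.17 ± 0.87 in Gria1 (0.968). By limma 0 windows passed at any of the 4 widths (0% each), with 898 (6.54%), 346 (9.97%), 335 (10.3%) and 397 (9.25%) at an unadjusted p under 0.05 for Grin1, Grin2a, Grin2b and Gria1. The Grin2b interval was itself among the 335 (limma unadjusted p = 0.0444).

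**Figure D3:**
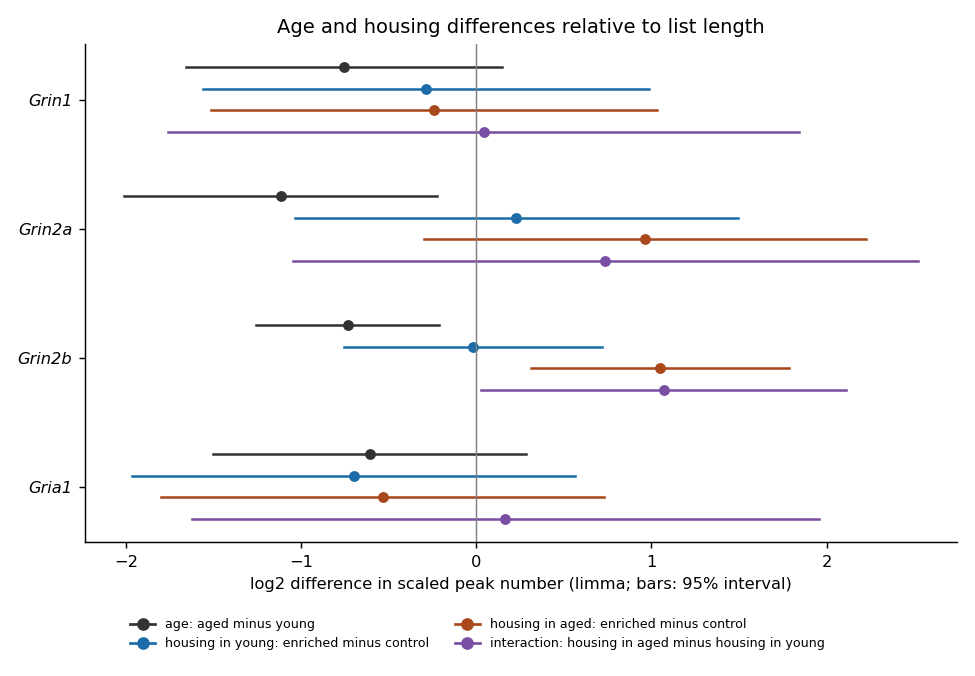
Log2 difference in peak number scaled to list length (horizontal axis) for each gene and comparison; points are limma estimates and bars 95% intervals before any adjustment for the number of windows. In Grin2b the age bar lies below 0 and the aged housing and interaction bars above it, and none of these passed after adjustment (limma adjusted p = 0.468, 0.110 and 0.478).

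Peaks of all samples that overlapped were merged into regions, 82 in the 4 intervals: 6 in Grin1, 14 in Grin2a, 51 in Grin2b and 11 in Gria1. A peak in only 1 sample made up 46 of the 82 regions (56.1%), beside 46.7% of all 156744 merged regions. Regions with a peak in 5 or more samples numbered 7 (8.54%), beside 14.5% of all, and no region had a peak in all 8 samples, as 1.31% of all did. Grin2b (31 of 51) and Gria1 (8 of 11) had mostly regions of 1 sample, and Grin1 (2 of 6) and Grin2a (5 of 14) fewer. Young control replicate 2, the longest list, supplied 16 of the 46 regions of 1 sample, beside 15217 of 73260 over the genome.

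Young samples alone made up 50 of the 82 regions (61.0%, beside 36.1% of all merged regions), aged samples alone 10 (12.2%, beside 24.6%), and both ages 22 (26.8%, beside 39.3%). By gene, regions with young peaks alone were 4 of 6 in Grin1, 10 of 14 in Grin2a, 28 of 51 in Grin2b and 8 of 11 in Gria1. Of the 10 with aged peaks alone, 4 came from aged enriched replicate 2 alone, 3 from aged control replicate 1, 2 from aged control replicate 2 and 1 from aged enriched replicate 1. None of the 10 was thus shared by aged samples. Over the genome most regions with aged peaks alone were also of 1 sample. Of 38532, in the same order of samples, 10184, 12920, 6079 and 5585 came from that sample alone.

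**Figure D4:**
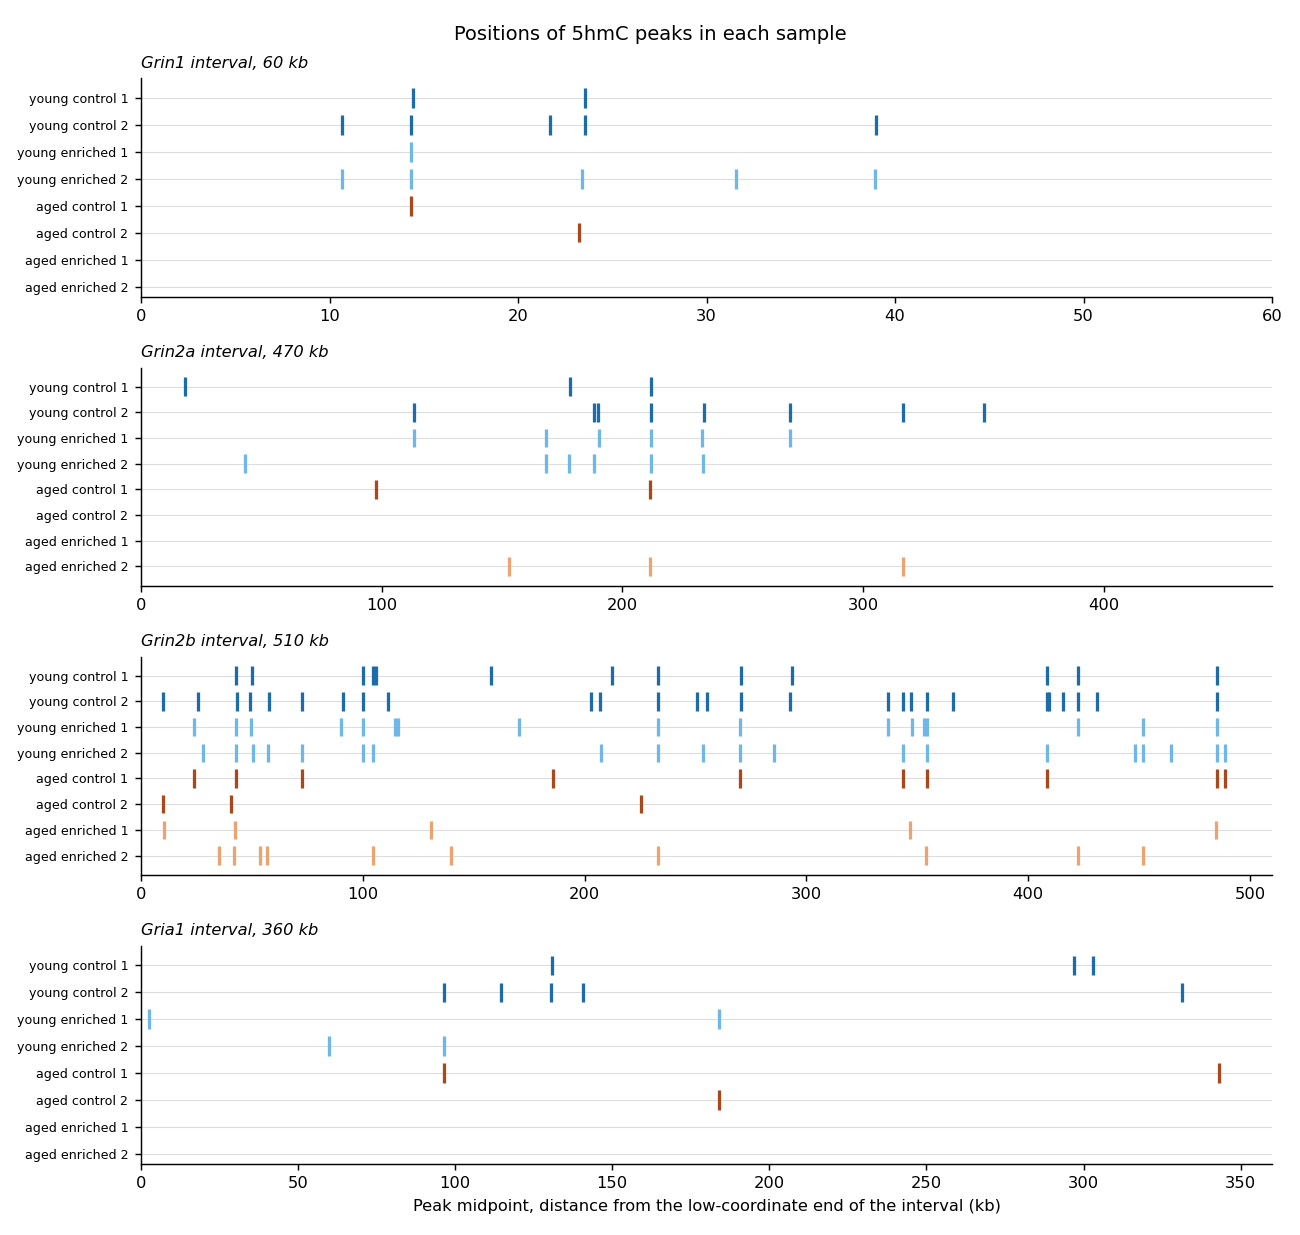
Midpoint of every peak by sample (rows), as distance in kb from the low-coordinate end of each interval (horizontal axis); each tick is 1 peak and colours are groups. Grin2b has peaks along its whole length, the high-coordinate ends of Grin1 and Grin2a have none in any sample, and the ticks at 42.9 kb in Grin2b and 211.9 kb in Grin2a recur in 7 and 6 samples.

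The strongest and most shared region lay in Grin2b, on chromosome 6 at 135681325 to 135684469, 3145 bp wide and centred 42.9 kb from the low-coordinate end of the interval. It had a peak in 7 of 8 samples. Scores were 338 and 371 in young control, 316 and 80.3 in young enriched, 266 in aged control replicate 1, and 197 and 263 in aged enriched samples. By rank in its own list this peak was among the top 0.61% and 0.98% in young control, 0.60% in young enriched replicate 1, 1.72% in aged control replicate 1, and 0.56% and 1.505% in aged enriched samples. The exception was young enriched replicate 2, where the peak ranked at 41.1% although it was the widest of all 163, at 2998 bp. Aged control replicate 2 had no peak here, but a peak of 1234 bp with a score of 61.3 ended 275 bp away, at 135679816 to 135681049.

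Toward the other end of Grin2b, the region at 136124188 to 136125798 had a peak in 6 samples, missing in aged control replicate 2 and aged enriched replicate 2. Its scores were 105 and 266 in young control, 154 and 185 in young enriched, 147 in aged control replicate 1 and 73.6 in aged enriched replicate 1. The region at 135992905 to 135994792 had a peak in 5 samples, with scores from 59.1 in aged control replicate 1 to 135 in young control replicate 2. Both regions were thus found at both ages and in both kinds of housing.

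Of the 82 regions, 2 had a peak in all 4 young and no aged samples, both in Grin2b. These were 2.44% of the regions, beside 0.894% of all merged regions. One, at 135739364 to 135740623, had scores of 89.2 and 137 in young control and 100.2 and 113 in young enriched samples. At the other, 135688662 to 135690995, which lies 4192 bp above the strongest region, scores were 133 and 62.3 in young control and 53.7 and 99.7 in young enriched samples. No region had the reverse pattern, which 0.00957% of all had.

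Grin2a had 1 region found in 6 samples, on chromosome 16 at 9761245 to 9762481. Its scores were 128 and 132 in young control, 95.5 and 145 in young enriched, 64.1 in aged control replicate 1 and 114 in aged enriched replicate 2. With the interval split into 4 equal stretches, the one around this region (9667501 to 9785000) held 18 of the 28 Grin2a peaks, and the one at the high-coordinate end, from 9902501 to 10020000, held none. The most shared Grin1 region (chromosome 2, 25143735 to 25144897) was found in the 4 young samples (71.4, 129, 109 and 97.8) and in aged control replicate 1 (84.0). All 6 Grin1 regions lay between 25140173 and 25169451.

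Gria1 had no region with a peak in more than 3 samples. Its highest score was 98.3, in young enriched replicate 2 at 56859135 to 56860347 on chromosome 11, where no other sample had a peak. The longest stretch between Gria1 regions ran for 112 kb without a peak in any sample, from 56984329 to 57096692. Between regions of Grin2a and Grin2b such stretches reached 53.8 and 42.1 kb, and in Grin2a a further 119 kb from the last region to the end of the interval held no peak. Exons, introns, promoters and sequences of these regions were not analysed here, so regions are placed by their mm9 coordinates only.

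**Figure D5:**
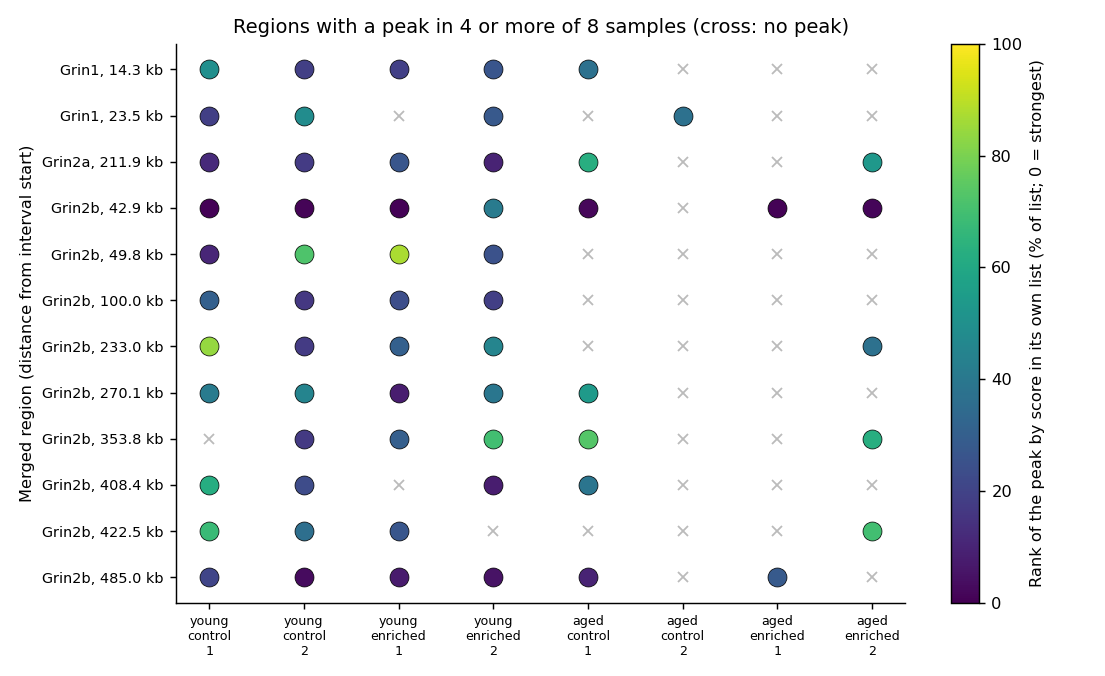
Regions with a peak in at least 4 of 8 samples (rows, named by gene and distance from the interval start) by sample (columns); colour is the rank of the peak by score in its own list as a percent of the list, with 0 the strongest, and a cross is no peak. The Grin2b region at 42.9 kb ranks in the top 2% of 6 lists, and 9 of the 12 regions shown lie in Grin2b.

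Housing separated few regions in these genes. Both young enriched and neither young control sample had a peak in 2 regions (2.44%, beside 2.13% of all), Grin2a at 9717838 to 9718735 (scores 50.8 and 65.7) and Grin2b at 136091290 to 136092040 (56.4 and 70.2), the second of which also had a peak of 140 in aged enriched replicate 2. The reverse held for 1 region (1.22%, beside 2.78%), Gria1 at 56929638 to 56931175 (50.5 and 67.6). In aged mice no region had a peak in both control and neither enriched samples (0%, beside 5.6% of all), nor in both enriched and neither control samples (0%, beside 0.561%). Aged control replicate 2 had 5 peaks in the 4 intervals, none in a region with a peak of aged control replicate 1. The first of these patterns therefore could not arise. How many of all merged regions had a peak in both aged control samples was not computed.

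The peaks themselves were compared with their lists in width and score. In young control replicates 1 and 2 their median widths were 938 and 977 bp, against 920 and 952 bp in the whole lists. Young enriched samples had 873 and 878 bp against 865 and 915 bp. In aged control samples they were 750 and 755 bp against 870 and 738 bp, and in aged enriched samples 776 and 418 bp against 650 and 430 bp. Median scores ranged from 61.3, against 66.9 in the whole list, in aged control replicate 2 to 114, against 117, in aged enriched replicate 2. The widest gap was in aged enriched replicate 1, with 73.5 against 61.0 over 5 peaks. Scores of 100 or more were held by 10 of 13 peaks in aged enriched replicate 2 and by 0 of 5 in aged control replicate 2, beside 72.4% and 17.4% of those lists. Of the regions with a peak of a given sample, 60.0% to 80.0% were shared with another sample, beside 65.4% to 86.6% over the genome.

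Other windows of the same width had nearly the same profile over the 8 samples. The closest to Grin2b was chromosome 14 at 78540001 to 79050000 (Pearson r = 0.98 of log2 scaled peak number over 8 samples, the best of 2132 windows compared), with 14, 27, 16 and 19 peaks in young (control first) and 11, 5, 6 and 9 in aged samples. For Grin2a it was chromosome 3 at 109040001 to 109510000 (r = 0.97), for Grin1 chromosome 12 at 52980001 to 53040000 (r = 0.99) and for Gria1 chromosome 1 at 74520001 to 74880000 (r = 0.93). All windows share the 8 lists and their lengths, so these values describe likeness only. Further glutamate receptor, scaffold and kinase genes, such as Gria2, Grin2d, Dlg4 and Camk2a, were not analysed here, because they could not be placed in mm9.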

How the data were processed

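Peak lists of 8 hippocampal 5hmC captures were analysed. Per the submitters' processing notes, the tools were CASAVA 1.4, Bowtie 0.12.9 and MACS 1.4.2, and the build was mm9. Caller settings, the background library and read numbers are not known here. The score of each peak is the authors' deposited value. Ranks by score were taken within a list. The minimum score used as an alternative was the same for all lists, and the highest score of a gene was picked across lists. Whether scores are comparable between lists was not tested, and the share of peaks above that minimum differed widely between them. Counts and differences among such peaks therefore cannot be separated from differences in scores between lists. The 4 genes, their intervals and the lists were chosen with earlier results of these data known.

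Peaks overlapping an interval by 1 bp were counted. For tests the genome was tiled in windows as wide as the interval, with the interval itself as 1 window. Counts plus a pseudocount of 1 peak were divided by list length, per 1000000 peaks, and taken as log2. This pseudocount shrinks differences of low counts and weighs more in short lists, so it can raise a log2 difference as well as lower it. As an alternative, log2 of length under peaks plus 500 bp was taken as a share of the list's total length under peaks. limma 3.58.1 (R 4.3.3) was fitted with a trend of the spread on mean level, taking the 8 samples as 4 groups, over windows with a mean of at least 1 peak per sample, with Benjamini-Hochberg adjustment over all windows of that width and a threshold of 0.05. All 4 intervals passed this filter, and shares of windows without overlap between groups were taken over the same windows. Samples may be technical replicates, so p-values measure only the spread between them. The script was tested on simulated data. Percentiles were taken among windows with a peak in any sample. Overlapping peaks of all samples were merged into regions, and a sample had a region with at least 1 bp under a peak. Named were, per gene, up to 3 regions with peaks in the most samples (at least 5), up to 3 per pattern that separates groups, the highest and widest peak, and the most alike window with at least 0.5 times the gene's mean. Python 3.11.15 and pandas 2.3.3 did the rest. A pseudocount in proportion to list length, and region counts without each sample, were added after seeing the data.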

Additional observations from a re-analysis of the deposited data

Results flagged for a closer look

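Among the 4 young samples, young control replicate 1 had the lowest number of Grin2a peaks relative to its list. It had 6.86 per 100000 listed, against 10.1, 10.1 and 10.4 in the other 3. Its raw count of 3 peaks was also the lowest young value, against 8, 6 and 6. At counts this low 1 peak more or less moves the value, and this was not tested. Chance alone flags about 1 in 20 such groups.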

How the results depend on the processing

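None of the 16 differences in scaled peak number passed with all 8 samples and all peaks, and the filter on windows, counting by midpoint and fits of 1 age alone changed no call or direction. The replicate numbers did not pair samples (correlations of deviations from −0.11 to 0.065), and the fit with the replicate block left the estimates as they were and changed no call (Grin2b, housing in aged mice: 1.05, limma adjusted p = 0.125, with 10 windows called higher and 1 lower at that width, in place of 19 and 4).

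Length under peaks, as a share of the list's total length under peaks, gave 1.33 for housing in aged mice in Grin2b, which passed (limma adjusted p = 0.0454), and 0.095 in Grin1, against −0.24. At the Grin2b width this measure called 113 windows higher and 39 lower, in place of 19 and 4. With a score of at least 100, signs turned for age in Grin1 (0.051), Grin2a (0.15) and Gria1 (0.80), for housing in young mice in Grin2a (−0.14) and Gria1 (0.15), and for housing in aged mice in Grin1 (0.40) and Gria1 (0.40). Gria1 has no such peak in any sample and Grin1 none in aged samples, so the Gria1 values and the aged housing value of Grin1 come from the pseudocount and the list lengths alone. In equally long lists of 25548 peaks, signs turned for housing in young mice in Grin1 (0.21), Grin2b (0.18) and Gria1 (0.50) and for the interaction in Grin1 (−1.21) and Gria1 (−0.50). With window medians set equal they turned for Grin2b in young mice (0.0073) and for the interaction in Grin1 (−0.16) and Gria1 (−0.079). That interaction was also −1.15 and −1.12 in Grin1 and Gria1 with a pseudocount of 0.25 peak, and −0.79 and −0.64 with one in proportion to list length, an alternative chosen after seeing the data, which also moved Grin2a from 0.97 to 0.56 for housing in aged mice and from 0.74 to 0.32 for the interaction. The cause of the other turns was not tested.

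Leaving out 1 sample at a time gave, in the order Grin1, Grin2a, Grin2b and Gria1, −1.14 to −0.37, −1.55 to −0.68, −0.94 to −0.53 and −0.68 to −0.54 for age. For housing in young mice it gave −1.05 to 0.48, 0.071 to 0.39, −0.11 to 0.068 and −0.83 to −0.57, and in aged mice −0.56 to 0.078, 0.10 to 1.83, 0.64 to 1.46 and −0.67 to −0.40. The interaction ran from −0.73 to 0.81, −0.13 to 1.60, 0.66 to 1.48 and 0.030 to 0.30. Directions turned in Grin1 without young enriched replicate 1 (housing in young mice, 0.48) or aged control replicate 2 (in aged mice, 0.078), and in Grin2a without aged enriched replicate 2 (interaction, −0.13). The near-0 interaction of Grin1 turned without young control replicate 2, young enriched replicate 1, aged control replicate 1 or aged enriched replicate 1, and the near-0 young housing difference of Grin2b without young control replicate 2 (0.054) or young enriched replicate 1 (0.068). Whether a difference passed changed without aged enriched replicate 2 (age in Grin2a and Grin2b) or aged enriched replicate 1 (housing in aged mice in Grin2b). These fits leave 1 sample in that group, so no call is read from them. They also gave the highest numbers of windows called at those widths, and whether the change is particular to these genes was not tested.

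Merged regions in Grin1, Grin2a, Grin2b and Gria1 went from 6, 14, 51 and 11 to 2, 5, 16 and 0 with a score of at least 100 and to 3, 7, 22 and 1 in equally long lists. The 2 regions of all 4 young samples became 0, 1 and, with an overlap of at least 50% of the shorter peak, 1. The 2 and 1 regions separating young housing groups became 0 under both. Without 1 sample, regions of a gene numbered 5 to 6, 13 to 14, 42 to 50 and 8 to 11. Regions of all samples kept ran from 0 to 1 (the Grin2b region, without aged control replicate 2) and young regions from 2 to 4. Regions separating housing ran from 2 to 11 and 1 to 19 in young and from 0 to 10 and 0 to 11 in aged mice, enriched first, where 1 remaining sample was enough to count. Windows called for housing in aged mice ran from 0 to 205, 0 to 418, 0 to 314 and 0 to 327 at the widths of the same genes over all alternatives, against 0, 25, 23 and 13 with all samples, and for age from 0 to 18, 0 to 149, 0 to 102 and 0 to 103, against 0, 1, 0 and 0. Without read numbers, depth cannot be separated from 5hmC.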
